A study of Drosophila melanogaster with 26 samples.

Results

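The 67 genes described here lie next to the centromeres of chromosome arms 2L, 3L and 3R of *Drosophila melanogaster*, in the stretches of the release 6 genome assembly that belong to pericentric heterochromatin. They were chosen by position and by having reads, not by how they responded: a gene start above base 22000000 on 2L, above base 22900000 on 3L or below base 4200000 on 3R, more than 0 reads on the strand of the gene in each of the 26 samples, and no symbol of a ribosomal protein gene (RpL, RpS or mRp). Of the 17489 genes listed in the tables, 134 lie inside these limits. Of these, 63 lacked a read in at least 1 sample, 9 of them in every sample, and 4 were ribosomal protein genes (*RpL5*, *RpL10*, *RpL15* and *RpL21*). The remaining 67 genes, 26 on 2L, 31 on 3L and 10 on 3R, are called pericentric genes below, and 60 of them are protein-coding. In all, 7909 genes had reads in every sample. Chromatin marks were not measured in these libraries, so membership rests on the position of the gene start and not on the chromatin state of the cells. Several well-known heterochromatic genes inside the limits are missing for lack of reads: *spok* had reads in 12, *Pzl* in 11, *Myo81F* in 15 and *Gpb5* in 14 of the 26 samples.

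Pericentric heterochromatin is the compacted, repeat-rich chromatin around centromeres, marked by methylation of histone H3 at lysine 9 and bound by HP1a. It generally silences euchromatic genes that are moved into it, yet the genes that reside there, many of them with long introns full of transposon remnants, are transcribed, and some, such as *lt*, lose expression when they are moved away from it. JIL-1 is a kinase that phosphorylates serine 10 of histone H3 and is known for keeping heterochromatin from spreading in flies, and JASPer is its PWWP-domain partner, which binds methylated lysine 36 of histone H3.

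The data came from 2 established cell lines, S2 (S2-DRSC), of male origin, and Kc (Kc167), of female origin, each represented by a single line. Cells received double-stranded RNA against *jasper*, against *jil-1* or, as control RNAi, against an unrelated sequence, at 10 µg/mL for 3 days and again for 4 days. The methods of the study list 2 sequences each against *jasper* and *jil-1*, sequences of *gst* and *gfp*, and 2 kits for removing rRNA. The labels do not state which sequence or kit a sample had, so samples of a group may differ in these. S2 cells gave 4 *jasper*, 5 *jil-1* and 5 control RNAi samples, with replicates 4 and 5 in batch 1, 8 and 9 in batch 2 and 11 in batch 3, which held no *jasper* RNAi sample. From Kc cells 4 samples per RNAi were made, with replicates 1 and 2 in batch 1 and 3 and 4 in batch 2. Nothing states that replicates came from separate cultures, so p-values measure the spread between these samples, which may be technical in part.

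Own-strand reads on genes numbered between 4038886 and 17648358 per S2 sample and between 2513223 and 17419281 per Kc sample. Replicates varied by 7.43% in S2 and by 12.4% in Kc cells on top of the counting error (the biological coefficient of variation of edgeR). The RNAi was visible as reads on the strand opposite to the targeted gene. Opposite to *Jasper* they were between 131.7 and 1236 CPM (counts scaled to a library of 1000000 reads on genes, with TMM factors) in S2 libraries labelled as *jasper* RNAi and did not exceed 10.49 CPM in the other S2 libraries, and in Kc cells between 18.71 and 3636 CPM upon *jasper* RNAi and at most 4.028 CPM in the other libraries. Opposite to *JIL-1* they were between 109.4 and 399.8 CPM in the S2 libraries labelled *jil-1* RNAi and at most 13.11 CPM in the other S2 libraries, and in Kc cells between 59.75 and 159.8 CPM upon *jil-1* RNAi and at most 6.681 CPM in the other libraries. Own-strand reads on the target were below every control library in 2 of 4 (S2, *jasper*), 2 of 4 (Kc, *jasper*), 0 of 5 (S2, *jil-1*) and 1 of 4 (Kc, *jil-1*) libraries, so they do not check the knockdown. In S2 cells own-strand reads on *Jasper* came to 1102 and 1641 CPM in *jasper* RNAi replicates 5 and 9. Replicates 4 and 8 had 59.38 and 107.5 CPM. Kc *jasper* RNAi replicates 2 and 4 stood apart in the same way, so results were also computed without each of these pairs. The *jil-1* RNAi libraries were split too. In S2 cells replicates 4 and 8 had 566.1 and 674.8 CPM on *JIL-1*, against 88.73, 157.6 and 92.07 CPM in replicates 5, 9 and 11. In Kc cells replicates 1 and 3 had 345.7 and 259.5 CPM, against 35.94 and 56.98 CPM in replicates 2 and 4. The *jil-1* RNAi results were not computed without these pairs. The male-specific RNA *roX2* had 771.9 CPM in S2 and 1.259 CPM in Kc control cells. Of genes that mark blood cells, from which both lines are thought to derive, *srp* had 188.8 CPM in S2 and 214.9 CPM in Kc control cells, *Pxn* 3020 and 62.35 CPM, and *Hml* 31.21 and 2042 CPM, while the crystal cell genes *lz* and *PPO2* were below 1 CPM in the control samples of both lines. In bulk RNA of this kind, fewer cells of a type and less RNA per cell cannot be told apart.

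The first question was how the pericentric genes changed in S2 cells. Upon *jasper* RNAi 22 of the 67 genes (32.8%) fell and 1 rose past the threshold of edgeR's quasi-likelihood test (adjusted p under 0.05), against 11.9% lower, 8.45% higher and 20.3% in either direction among all 8465 genes tested. Upon *jil-1* RNAi 26 (38.8%) fell and 0 rose, against 12.3% lower, 9.12% higher and 21.4% in either direction among all genes. At an unadjusted p under 0.05 the edgeR test also gave 2 pericentric genes higher upon *jil-1* RNAi, and DESeq2 with adjustment 0. The median log2 fold-change over all 67 genes was -0.07 upon *jasper* and -0.14 upon *jil-1* RNAi, against 0.01 and 0.00 over all genes, so that most pericentric genes moved little and a minority moved far. Among the genes that fell, the median was -1.15 upon *jasper* and -0.89 upon *jil-1* RNAi, where it was -0.35 and -0.31 over all genes called lower. A log2 fold-change below -1 was found for 13 and 12 of the pericentric genes that fell, while such genes made up 1.65% and 1.39% of all genes tested.

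The genes that fell lay on each of the 3 arms. Upon *jasper* RNAi they were 10 of 26 on 2L, 8 of 31 on 3L and 4 of 10 on 3R, and upon *jil-1* RNAi 12, 9 and 5. Among the 156 genes that start within 1 Mb outside the limits, on the euchromatic side, 16 (10.3%) were called lower upon *jasper* and 13 (8.33%) upon *jil-1* RNAi, close to the share among all genes. Of 76 genes of the fourth chromosome, 15 (19.7%) were called lower upon *jasper* and 29 (38.2%) upon *jil-1* RNAi, and 0 higher upon either. Upon *jil-1* RNAi that share was close to the share of the pericentric genes. Of the X genes tested, 21.7% and 20.8% were called lower. Within the limits the genes over 1000 kb inside were called lower in 4 of 19 cases upon *jasper* and 3 of 19 upon *jil-1* RNAi, those 250 to 1000 kb inside in 10 and 11 of 25, and those under 250 kb inside in 8 and 12 of 23.

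**Figure D1:**
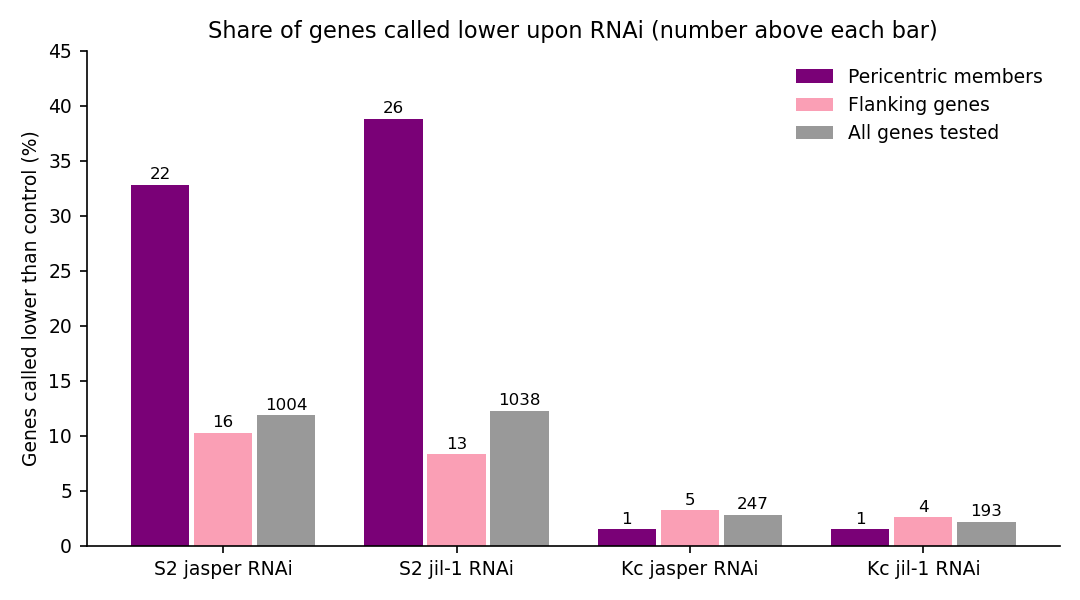
Share of genes called lower than control RNAi (y axis, percent; adjusted p under 0.05, edgeR) in the 4 RNAi comparisons (x axis), for the pericentric genes, the genes within 1 Mb outside the limits and all genes tested. In S2 cells the pericentric bars stand at 32.8% and 38.8%, the flanking bars at 10.3% and 8.33%, and in Kc cells 1 pericentric gene is called lower in each comparison.

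Both RNAi comparisons use the same control samples, so their calls are not independent of each other. With that in mind, 19 genes were called lower upon both, which is 86.4% of the *jasper* list and 73.1% of the *jil-1* list. The same overlap was not computed over all genes tested, so these shares cannot be read as particular to the pericentric genes. Only in the *jasper* list were *CG17490*, *CG41284* and *lncRNA:CR45177*, and only in the *jil-1* list *CG17715*, *CG40198*, *CG40470*, *CkIIalpha*, *Clamp*, *Ir40a* and *Snap25*. The other 38 genes include *ND-AGGG*, which rose upon *jasper* RNAi, and 37 called in neither comparison. Those 37 had log2 fold-changes between -0.26 and 0.38 upon *jasper* RNAi, 33 of them within 0.25 of no change, and between -0.41 and 0.16 upon *jil-1* RNAi, 36 of them within 0.25.

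**Figure D2:**
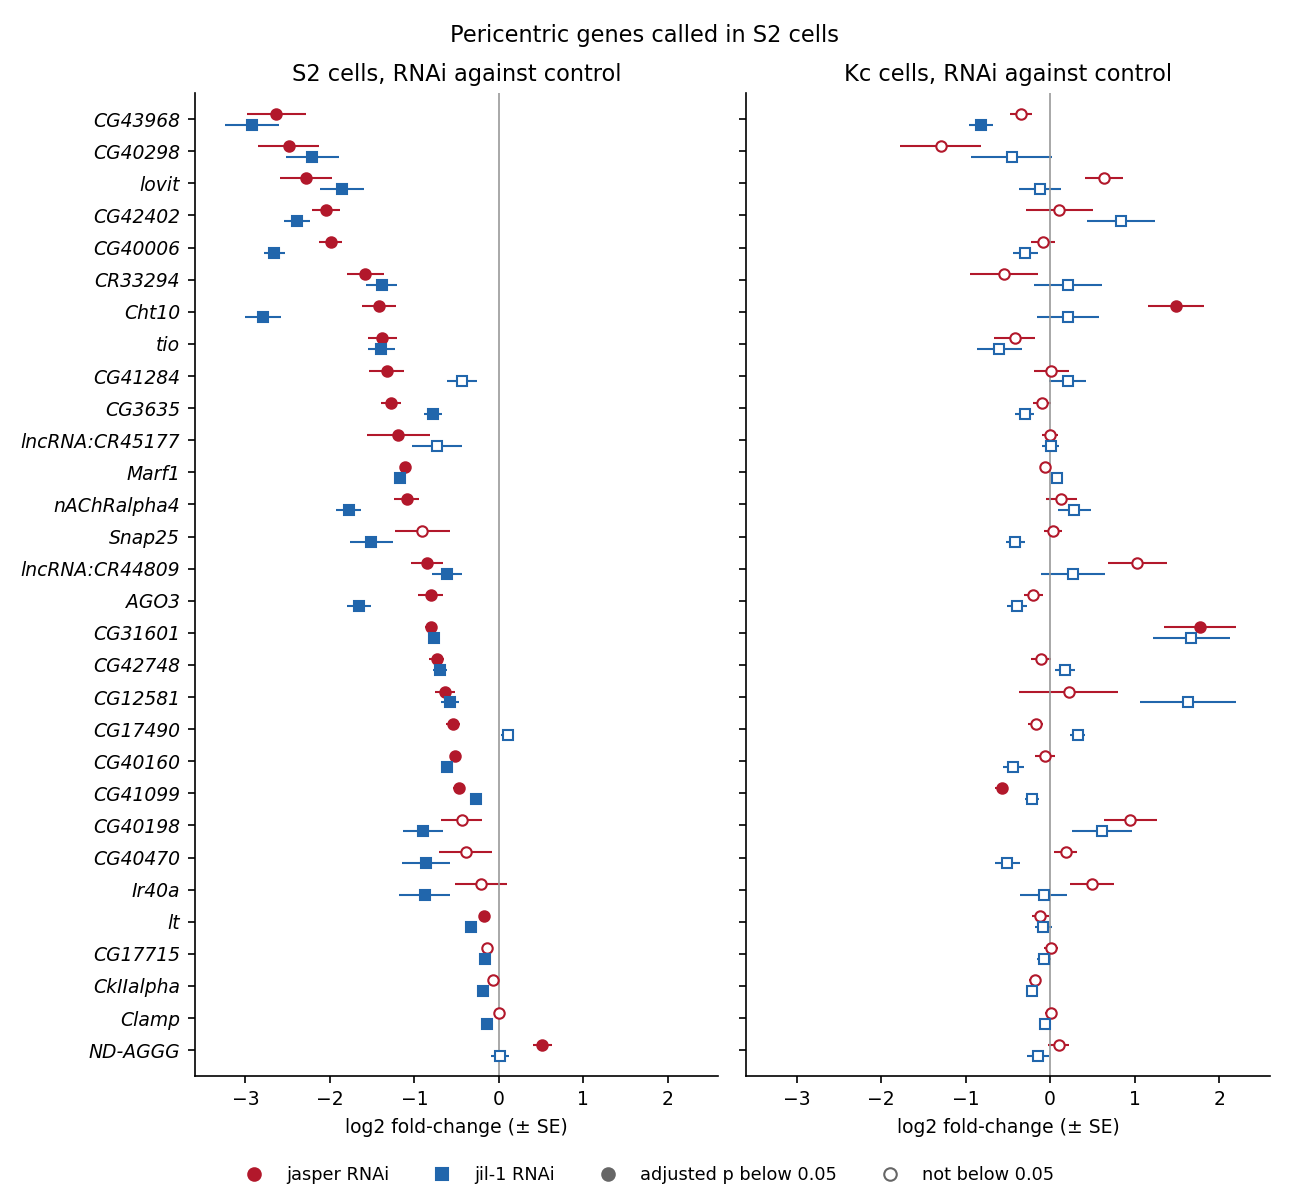
Log2 fold-change against control RNAi (x axis, with standard errors from edgeR as bars) of the pericentric genes called in S2 cells (rows), in S2 cells (left) and Kc cells (right), with filled symbols for adjusted p under 0.05. In S2 cells the values run from -2.92 to 0.52, and in Kc cells the same genes scatter on both sides of 0.

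Of 4 genes that act on RNA, a group put together by hand, 2 fell upon each RNAi in S2 cells, where 11.9% and 12.3% of all genes were called lower. Of all pericentric genes 32.8% and 38.8% were called lower, and 4 genes are too few for their count to be read against these shares. *Marf1* (FBgn0039972; 2L, 22308755 to 22368796, plus strand), which in fly oocytes promotes the decay of target mRNAs, had 194, 210, 191 and 218 CPM upon *jasper* RNAi in S2 cells and 206, 194, 190, 189 and 129 CPM upon *jil-1* RNAi, against 440, 440, 446, 439 and 277 CPM in control S2 cells. All 9 RNAi samples were below all 5 control samples, although replicate 11 was low in both groups it belongs to. The log2 fold-change was -1.11 (standard error, SE, of 0.05, edgeR adjusted p = 6.5e-10) upon *jasper* and -1.17 (SE 0.04, adjusted p = 3.9e-11) upon *jil-1* RNAi. By batch it was -1.12 and -1.12 upon *jasper* RNAi, and -1.14, -1.22 and -1.11 upon *jil-1* RNAi. In Kc cells *Marf1* was more abundant and was not called, with 1069, 1058, 845 and 816 CPM upon *jasper* RNAi and 1186, 1257, 845 and 876 CPM upon *jil-1* RNAi, against 1113, 1131, 835 and 854 CPM in control Kc cells.

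*AGO3* (FBgn0250816; 3L, 23554593 to 23689640, plus strand) encodes a Piwi-family Argonaute that amplifies piRNAs against transposons in the germline. It had 6.87, 9.12, 7.77 and 9.26 CPM upon *jasper* RNAi and 5.56, 5.27, 3.33, 4.69 and 7.60 CPM upon *jil-1* RNAi, against 12.6, 17.6, 16.1, 12.6 and 21.8 CPM in control S2 cells. No RNAi sample reached the lowest control. The log2 fold-changes were -0.81 and -1.66 with standard errors of 0.15 and 0.15 (edgeR adjusted p = 0.0013 and 1.3e-06), and the difference of 0.85 between *jasper* and *jil-1* RNAi was itself past the threshold (adjusted p = 0.0054). Kc cells held far more *AGO3*, 199, 188, 244 and 183 CPM upon *jasper* RNAi and 165, 164, 224 and 149 CPM upon *jil-1* RNAi, against 201, 248, 223 and 253 CPM in control Kc cells, and neither difference passed the test. The other genes of this group were not called in S2 cells: *Dbp80*, a DEAD-box RNA helicase, had 0.04 and -0.41, and the translation initiation factor *eIF4B* had 0.06 and -0.14 (log2 fold-change upon *jasper* and *jil-1* RNAi). *BoYb*, a Tudor-domain gene of the piRNA pathway and the 3L gene nearest to the limit, had -0.08 and -0.02.

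**Figure D3:**
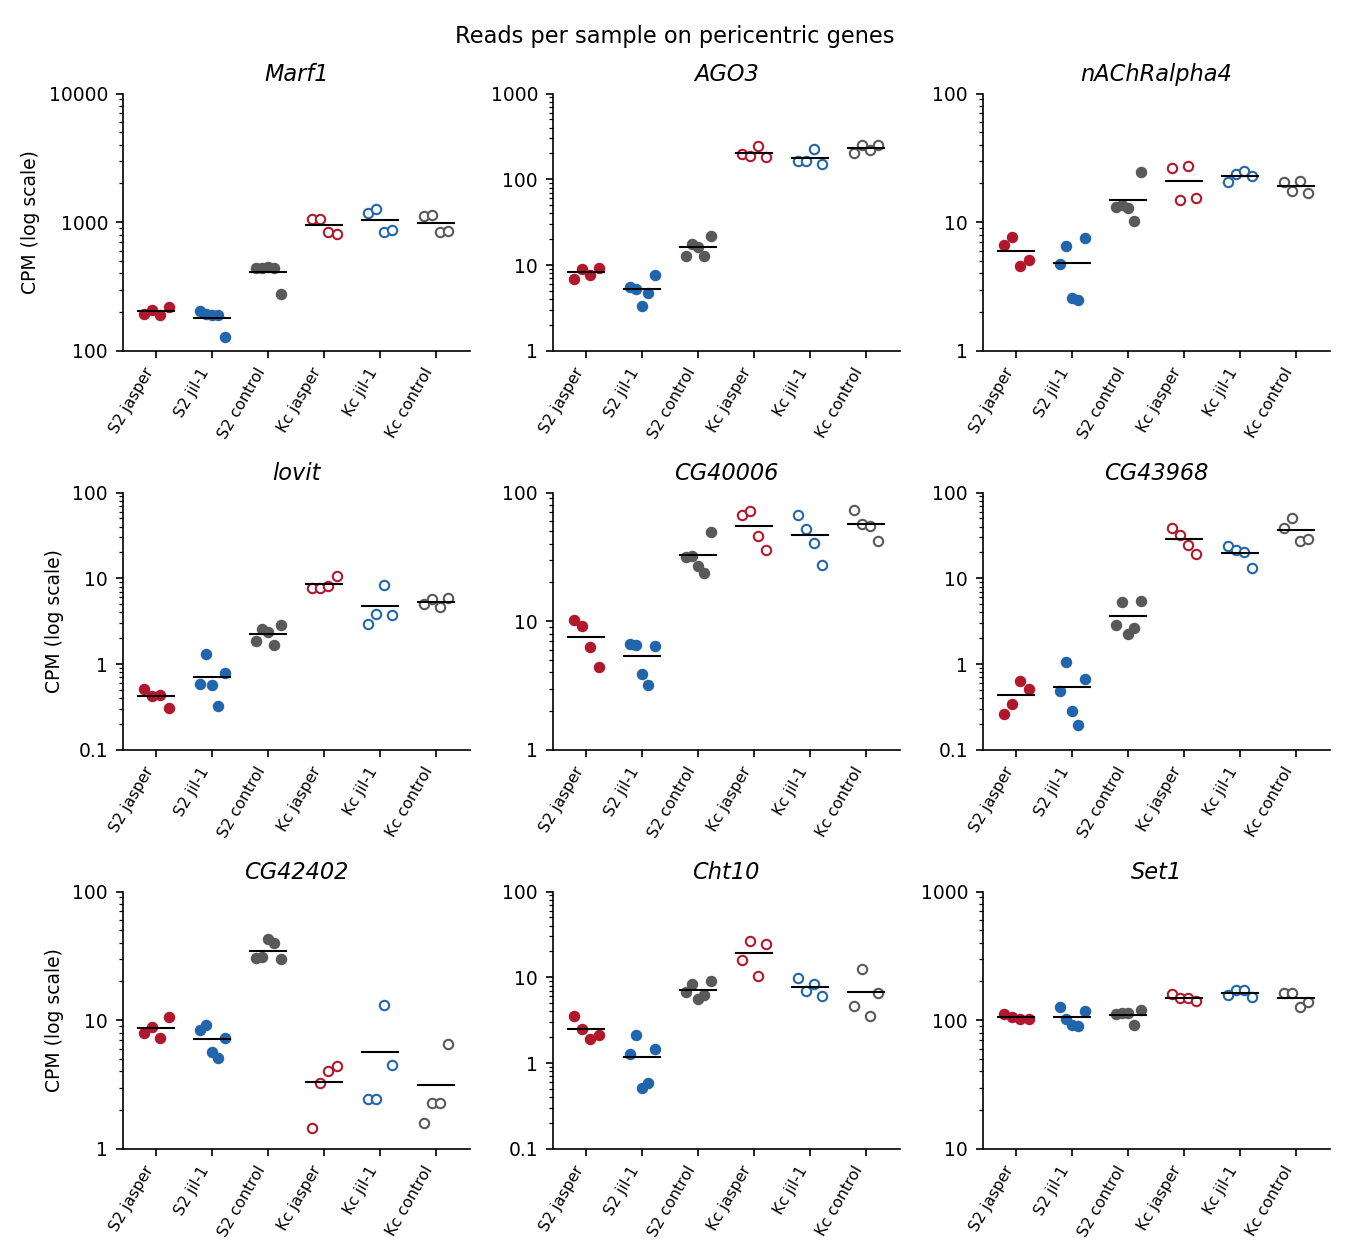
CPM of single pericentric genes in each sample (y axis, log scale; 1 point per sample, colour by RNAi, lines at the group mean; filled points for S2 and open points for Kc cells), with the S2 groups left of the Kc groups and RNAi left of control. *Marf1*, *AGO3* and *CG40006* have all S2 RNAi samples below all S2 control samples, and *Set1* has overlapping groups in both lines.

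Of 4 genes of receptors and transmitter release, 2 fell upon *jasper* and 4 upon *jil-1* RNAi in S2 cells. Of all genes, 11.9% and 12.3% were called lower, and 9.83% and 9.68% of those under 50 CPM. Of the pericentric genes under 50 CPM, 46.9% and 53.1% were called lower. The group was put together by hand and carries no test, and 4 genes are too few for their count to be read against these shares. *nAChRalpha4* (FBgn0266347; 3L, 23206669 to 23287448, plus strand), a nicotinic acetylcholine receptor subunit, had 6.61, 7.74, 4.55 and 5.09 CPM upon *jasper* RNAi and 4.78, 6.58, 2.59, 2.48 and 7.48 CPM upon *jil-1* RNAi, against 13.2, 13.7, 12.8, 10.2 and 24.6 CPM in control S2 cells. The RNAi and control values did not overlap, with replicate 11 high among both the *jil-1* RNAi and the control samples. The log2 fold-change was -1.09 (SE 0.15) upon *jasper* and -1.78 (SE 0.15) upon *jil-1* RNAi, and edgeR's quasi-likelihood test gave adjusted p = 0.00012 and 5.9e-07. *lovit* (FBgn0267429; 3L, 25236940 to 25670980, minus strand), a vesicular transporter needed for histamine release by fly photoreceptors, had 0.519, 0.430, 0.442 and 0.305 CPM upon *jasper* RNAi and 0.585, 1.32, 0.564, 0.326 and 0.794 CPM upon *jil-1* RNAi, against 1.84, 2.55, 2.35, 1.67 and 2.86 CPM in control S2 cells. These groups did not overlap either, but the *jasper* RNAi values rest on 3 to 7 reads per library. Its log2 fold-changes were -2.29 (SE 0.31) and -1.85 (SE 0.26).

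*Snap25*, a SNARE protein of synaptic vesicle fusion whose gene spans 225026 bp, and *Ir40a*, an ionotropic receptor of humidity sensing, were called lower upon *jil-1* RNAi only. *Snap25* had 0.293, 0.263, 0.282, 0.130 and 1.93 CPM upon *jil-1* RNAi, against 0.812, 0.929, 0.509, 0.477 and 6.17 CPM in control S2 cells. The groups overlapped because replicate 11 was far above the other samples in both, but each *jil-1* RNAi sample was below the control of its own number. The log2 fold-change was -1.51 (SE 0.26, edgeR adjusted p = 0.00064), and upon *jasper* RNAi it was -0.91 (adjusted p = 0.11). Most of these *Snap25* values rest on few reads per library. Without the batch block the call upon *jil-1* RNAi was lost (-1.75, edgeR adjusted p = 0.212). *Ir40a* had 0.488, 1.05, 0.846, 0.586 and 0.680 CPM upon *jil-1* RNAi, against 1.18, 0.697, 1.27, 1.43 and 1.60 CPM in control S2 cells, and these overlapped. Its log2 fold-change of -0.88 had an adjusted p of 0.0496, which became 0.051 with the replicate number as a block and lay between 0.0541 and 0.136 without any 1 of 10 of the 14 libraries. The direct test of *jasper* against *jil-1* RNAi gave 0.60 (adjusted p = 0.49) for *Snap25* and 0.67 (adjusted p = 0.26) for *Ir40a*, so a difference between the RNAi treatments was not shown for either.

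Among the other genes with known roles, *Cht10* (FBgn0250907; 2L, 22999574 to 23025915, minus strand), a chitinase gene, had 3.50, 2.49, 1.90 and 2.14 CPM upon *jasper* RNAi and 1.27, 2.11, 0.508, 0.586 and 1.47 CPM upon *jil-1* RNAi, against 6.79, 8.36, 5.66, 6.20 and 9.03 CPM in control S2 cells. Every RNAi sample was below every control. Its log2 fold-changes were -1.42 (SE 0.20) and -2.80 (SE 0.21), and the 2 RNAi treatments differed by 1.38 (adjusted p = 0.0035, edgeR's quasi-likelihood test). *tio*, a zinc-finger transcription factor related to teashirt, had 2.98, 4.99, 3.60 and 5.09 CPM upon *jasper* RNAi and 4.49, 6.06, 3.50, 4.23 and 6.80 CPM upon *jil-1* RNAi, against 9.52, 12.1, 11.8, 9.06 and 21.04 CPM in control S2 cells. The groups stood apart, and the log2 fold-changes were -1.38 and -1.39. The read counts of *tio* leave out reads that also lie on *lncRNA:CR33987*, whose exons overlap it on the same strand.

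*lt* (FBgn0002566; 2L, 22924795 to 22943135, plus strand) encodes a Vps41-type subunit of the HOPS complex, which tethers vesicles to lysosomes, and is the classical example of a gene that needs its heterochromatic place. It had 218, 237, 215 and 234 CPM upon *jasper* RNAi and 224, 199, 200, 183 and 204 CPM upon *jil-1* RNAi, against 252, 264, 251, 253 and 251 CPM in control S2 cells. The RNAi samples all lay below the controls, but by little. The log2 fold-change was -0.33 (SE 0.05, adjusted p = 0.00015) upon *jil-1* RNAi and -0.17 (SE 0.05, adjusted p = 0.030) upon *jasper* RNAi by edgeR's quasi-likelihood test, and the second call was lost (log2 fold-change -0.14 to -0.17, adjusted p = 0.0555 to 0.098) without any 1 of 5 libraries (control 5, 8 or 9, or *jasper* RNAi 4 or 8).

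Several genes without a name beyond their annotation number also fell. *CG40006* (FBgn0058006; 2L, 22622417 to 22756349, minus strand) had 10.2, 9.12, 6.32 and 4.38 CPM upon *jasper* RNAi and 6.63, 6.58, 3.89, 3.19 and 6.46 CPM upon *jil-1* RNAi, against 31.3, 32.3, 27.05, 23.8 and 49.4 CPM in control S2 cells. The highest RNAi sample had less than the lowest control by a wide margin, and the log2 fold-changes were -1.99 (SE 0.13) and -2.66 (SE 0.13), with edgeR adjusted p = 5.3e-08 and 7.6e-10. *CG42402* (FBgn0259821; 3R, 4077939 to 4104326, plus strand) had 7.91, 8.86, 7.27 and 10.7 CPM upon *jasper* RNAi and 8.39, 9.22, 5.70, 5.08 and 7.26 CPM upon *jil-1* RNAi, against 30.7, 31.1, 42.9, 39.6 and 29.7 CPM in control S2 cells. Here too the groups stood apart, and the log2 fold-changes were -2.05 (SE 0.17) and -2.39 (SE 0.16). *CG43968*, a compact gene in contrast to the long ones, had the lowest fold-changes of all, -2.64 (SE 0.35) and -2.92 (SE 0.32). It had 0.259, 0.344, 0.632 and 0.509 CPM upon *jasper* RNAi and 0.488, 1.05, 0.282, 0.195 and 0.680 CPM upon *jil-1* RNAi, against 2.88, 5.34, 2.23, 2.62 and 5.37 CPM in control S2 cells, which did not overlap, and as few as 2 reads in a *jasper* RNAi library. *CG40298* was as low, with 3 to 8 reads per *jasper* RNAi library, and had -2.49 and -2.21.

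Other genes fell by less. *CG31601* (2L, 22040727 to 22043877, minus strand) had 59.2, 55.4, 39.6 and 38.4 CPM upon *jasper* RNAi and 64.1, 56.9, 37.0, 39.9 and 72.5 CPM upon *jil-1* RNAi, against 93.8, 88.9, 75.6, 76.5 and 115.3 CPM in control S2 cells. *CG42748* (2L, 22131221 to 22166221, plus strand), whose exons overlap those of *lncRNA:CR43241* on the same strand, had 118, 134, 95.8 and 114.6 CPM upon *jasper* RNAi and 143, 159, 91.0, 101 and 148 CPM upon *jil-1* RNAi, against 194, 211, 179, 177.3 and 262 CPM in control S2 cells. In both genes all RNAi samples were below all controls, with log2 fold-changes of -0.81 and -0.77 for *CG31601* and -0.74 and -0.70 for *CG42748*. *CG3635* fell more upon *jasper* RNAi, with 17.5, 22.8, 19.2 and 24.6 CPM, than upon *jil-1* RNAi, with 27.01, 34.0, 27.8, 28.2 and 35.8 CPM, against 52.9, 52.7, 57.9, 44.8 and 46.1 CPM in control S2 cells. Its log2 fold-changes were -1.28 and -0.78 and differed by -0.50 (adjusted p = 0.018, edgeR's quasi-likelihood test). *CG12581* (-0.64 and -0.58), *CG40160* (-0.52 and -0.62) and *CG41099* (-0.47 and -0.27) completed the protein-coding genes called in both comparisons.

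Of the 7 non-coding RNA genes and pseudogenes, 3 fell upon *jasper* and 2 upon *jil-1* RNAi in S2 cells. Of all genes 11.9% and 12.3% were called lower, and of all pericentric genes 32.8% and 38.8%. With 7 genes the counts are too small to be read against these shares. The pseudogene *CR33294* had log2 fold-changes of -1.58 and -1.39, and *lncRNA:CR44809* of -0.85 and -0.61. The call of *lncRNA:CR44809* upon *jil-1* RNAi was lost without control 11 or *jil-1* RNAi 11 (-0.54, edgeR adjusted p = 0.0759 and 0.0758). *lncRNA:CR45177* had -1.19 upon *jasper* RNAi (adjusted p = 0.035), a call lost without any 1 of 4 libraries (control 5 or 8, *jasper* RNAi 5 or 9; adjusted p = 0.0621 to 0.165) and without both of these *jasper* RNAi samples (-0.68, adjusted p = 0.284), and -0.73 upon *jil-1* RNAi (adjusted p = 0.094).

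The chromatin and transcription regulators within the limits are 4 genes, too few for their count to be read against the 11.9% and 12.3% of all genes called lower. *Set1*, a histone H3 lysine 4 methyltransferase, *vtd*, the Rad21 subunit of cohesin, *Parp1*, the fly poly(ADP-ribose) polymerase, and *MED21*, a Mediator subunit, gave 0 calls of 4 upon either RNAi by edgeR's quasi-likelihood test, with log2 fold-changes between -0.10 and -0.04 upon *jasper* and between -0.24 and -0.08 upon *jil-1* RNAi. All 4 values were negative in both comparisons, and at an unadjusted p under 0.05, 0 of the 4 differed upon *jasper* and 2 upon *jil-1* RNAi, and DESeq2 with adjustment also called 0 in either comparison. *Set1* had 112, 106, 102 and 102 CPM upon *jasper* RNAi and 126, 102, 91.1, 90.3 and 118 CPM upon *jil-1* RNAi, against 111, 114, 114.5, 91.8 and 121 CPM in control S2 cells, so the 3 groups overlapped. Of 7 genes of transcription, splicing and kinases, edgeR and DESeq2 called 0 upon *jasper* RNAi (1 at an unadjusted p under 0.05 in edgeR) and 2 were lower upon *jil-1* RNAi in edgeR, both by little. These were *CkIIalpha*, the catalytic subunit of casein kinase 2, at -0.19 (adjusted p = 0.015), and *Clamp*, a zinc-finger protein that guides dosage compensation to GA-rich sites, at -0.14 (adjusted p = 0.030). The call for *Clamp* was lost without any 1 of 6 libraries (control 4, 8 or 9, *jil-1* RNAi 5, 8 or 9; adjusted p = 0.0538 to 0.0901), and that for *CkIIalpha* without control 9 (adjusted p = 0.0517). *CG17715* (-0.17) and *CG40470* (-0.87) were also called upon *jil-1* RNAi alone, and were lost with the replicate number as a block (adjusted p = 0.051 and 0.0591), as was *Ir40a*, which brought the count of 26 to 23. They were lost as well without any 1 of 9 and 6 of the 14 libraries, with adjusted p of up to 0.119 and 0.173. The call for *CG40198* (-0.90 upon *jil-1* RNAi) was lost without control 8 (-0.76, adjusted p = 0.0757).

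The 1 pericentric gene that rose in S2 cells belongs to the mitochondria. *ND-AGGG*, a subunit of respiratory complex I, had 24.2, 23.0, 26.0 and 26.3 CPM upon *jasper* RNAi and 18.3, 17.1, 15.1, 20.8 and 22.1 CPM upon *jil-1* RNAi, against 14.5, 20.2, 19.3, 14.8 and 23.8 CPM in control S2 cells. Each *jasper* RNAi sample was above the control of its own number, while the highest control, replicate 11, reached into the *jasper* range. The log2 fold-change was 0.52 (SE 0.11, edgeR adjusted p = 0.0042) upon *jasper* RNAi, and the difference from *jil-1* RNAi was 0.50 (adjusted p = 0.011). Without the batch block both calls were lost (0.42, edgeR adjusted p = 0.0811, and 0.41, adjusted p = 0.189). The other 4 genes of the group, *ND-MLRQ*, *UQCR-11*, *Tim17b* and *Nubpl*, were not called. *cta*, a G protein alpha subunit of gastrulation, had 0.12 and -0.00, and *alpha-Cat*, which links cadherins to actin, had -0.06 and -0.12, and neither was called.

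The direct comparison of *jasper* with *jil-1* RNAi in S2 cells called 8 of the 67 genes, against 6.38% of all genes in either direction (2.80% higher and 3.58% lower). *CG41284* (-0.89), *CG17490* (-0.65) and *CG3635* (-0.50) were lower upon *jasper* than upon *jil-1* RNAi, and *Cht10* (1.38), *AGO3* (0.85), *nAChRalpha4* (0.69), *CG40006* (0.67) and *ND-AGGG* (0.50) were higher. *CG17490* had 82.6, 73.8, 71.9 and 60.9 CPM upon *jasper* RNAi, against 120, 117, 105, 101 and 113 CPM upon *jil-1* RNAi, while control S2 cells had 111, 96.4, 111, 112 and 84.8 CPM. The *jasper* samples were below all others. This was the only pericentric gene called between the 2 RNAi treatments in both lines, since Kc cells gave -0.50 (adjusted p = 0.024, edgeR's quasi-likelihood test). *CG41284* had 1.04, 1.98, 1.39 and 1.22 CPM upon *jasper* RNAi, against 3.41, 3.42, 2.54, 1.82 and 3.63 CPM upon *jil-1* RNAi and 4.35, 3.71, 3.31, 2.86 and 5.15 CPM in control S2 cells. The calls for 4 of these genes were lost without single libraries: *nAChRalpha4* without *jil-1* RNAi 8 or 9 or *jasper* RNAi 5 or 9 (0.60 to 0.67, adjusted p = 0.0574 to 0.0966), *CG40006* without *jil-1* RNAi 9 or *jasper* RNAi 5 or 8 (0.60 to 0.65, adjusted p = 0.0558 to 0.0602), *CG3635* without *jasper* RNAi 8 (-0.45, adjusted p = 0.0548) and *CG41284* without *jil-1* RNAi 8 (-0.83, adjusted p = 0.05). Without *jasper* RNAi replicates 5 and 9, the count of 8 became 5, since the calls were lost for *AGO3* (0.69, adjusted p = 0.0852), *nAChRalpha4* (0.58, adjusted p = 0.202), *ND-AGGG* (0.51, adjusted p = 0.0586) and *CG41284* (-1.03, adjusted p = 0.0589), while *lncRNA:CR44809* was gained (-0.63, adjusted p = 0.0443). The exons of *CG17490* overlap *lncRNA:CR46268* on the same strand.

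In Kc cells far fewer pericentric genes were called. Upon *jasper* RNAi 1 was lower and 3 were higher, against 2.79% lower, 1.76% higher and 4.56% in either direction among all 8847 genes tested. Upon *jil-1* RNAi 1 was lower and 1 was higher, against 2.18% lower, 1.35% higher and 3.53% in either direction. *CG41099* fell upon *jasper* RNAi in Kc as in S2 cells, with 180, 159, 170 and 147 CPM upon *jasper* RNAi, against 234, 292, 222 and 223 CPM in control Kc cells. The groups stood apart, and the log2 fold-change was -0.57 (SE 0.08, edgeR adjusted p = 0.0023). *CG43968* fell upon *jil-1* RNAi, with 23.5, 21.6, 20.2 and 13.2 CPM, against 38.6, 50.0, 26.9 and 29.1 CPM in control Kc cells (log2 fold-change -0.82, standard error 0.14). Again no value of one group reached the other.

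The genes that rose in Kc cells depended on single libraries. *CG31601* had 1.22, 1.23, 1.31 and 3.52 CPM upon *jasper* RNAi, against 0.351, 0.390, 0.342 and 0.985 CPM in control Kc cells (log2 fold-change 1.77, edgeR adjusted p = 0.037), which is 3 to 8 reads per control library. *Cht10* had 16.0, 26.5, 10.5 and 24.7 CPM upon *jasper* RNAi, against 4.64, 12.5, 3.53 and 6.53 CPM in control Kc cells (1.49, adjusted p = 0.027), and the 2 groups overlapped. *Parp1* had 471, 364, 328 and 273 CPM upon *jasper* RNAi, against 278, 321, 253 and 234 CPM in control Kc cells (0.38, adjusted p = 0.039), which overlapped too. The call was lost for *CG31601* without any 1 of 6 of the 12 Kc libraries (adjusted p = 0.0508 to 0.0992), for *Cht10* without any 1 of 5 (0.0604 to 0.0868) and for *Parp1* without any 1 of 9 (0.0536 to 0.0978). Kc *jasper* RNAi replicates 2 and 4 had 1980 and 1042 CPM of own-strand reads on *Jasper*, against 14.96 and 75.69 CPM in replicates 1 and 3, and without replicates 2 and 4, an alternative chosen after seeing the data, *CG31601* had 1.35 (adjusted p = 0.124) and *Cht10* 0.93 (adjusted p = 0.174). Replicate 4 also held 21.4 CPM of *roX2*, where the other Kc libraries held at most 4.699 CPM and S2 control cells 771.9 CPM, and it had the highest *CG31601* of the *jasper* RNAi libraries, a gene far more abundant in S2 cells. The part of this in the result was not tested. *CG17493* rose upon *jil-1* RNAi by 0.52 (adjusted p = 0.015), and the call was lost without control 3 (0.50, adjusted p = 0.0543) or *jil-1* RNAi 1 (0.47, adjusted p = 0.0536).

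Between *jasper* and *jil-1* RNAi in Kc cells, 1 gene, *CG17490*, was called lower and 0 higher, against 0.588% of all genes in either direction (0.339% lower and 0.249% higher). At an unadjusted p under 0.05 the edgeR test gave 13 pericentric genes higher, and DESeq2 with adjustment 4. With the replicate number as a block there were 2 calls, the second being *CG40470* (0.73, adjusted p = 0.0413), and *CG31601* became a call upon *jil-1* RNAi in Kc cells (1.83, adjusted p = 0.0316). The call for *CG17490* was lost without *jil-1* RNAi 2 or 3 or *jasper* RNAi 2 or 4 (adjusted p = 0.0544 to 0.116), and without both of these *jasper* RNAi samples (-0.37, adjusted p = 0.0838). Single libraries moved these small counts: upon *jasper* RNAi the 4 calls became 1 without control 1 or control 3 and 2 without control 4, *jil-1* RNAi 2 or *jasper* RNAi 2, and upon *jil-1* RNAi the 2 calls became 1 without *jil-1* RNAi 1, 5 without *jil-1* RNAi 3 and 4 without *jasper* RNAi 4. The count of 1 between the treatments became 0 without *jil-1* RNAi 2, *jasper* RNAi 2 or *jasper* RNAi 4, 2 without control 2, 3 without *jasper* RNAi 3 and 4 without *jil-1* RNAi 3.

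The 19 genes called lower upon both RNAi treatments in S2 cells showed no common direction in Kc cells. Upon *jasper* RNAi 12 of them had a negative and 7 a positive log2 fold-change (median -0.08), and upon *jil-1* RNAi 10 and 9 (median -0.08). Their medians in S2 cells were -1.11 and -1.39, but the genes were chosen by their S2 calls. The S2 medians are therefore low by that choice and do not measure a difference between the lines. A gene that passes the test in one line and not in the other need not differ between lines, so the difference was tested as an interaction of line and RNAi over all 26 samples. For *jasper* RNAi the response in S2 minus that in Kc cells was lower for 14 pericentric genes and higher for 0, against 3.00% lower, 1.33% higher and 4.32% in either direction among 7909 genes. For *jil-1* RNAi these were 16 and 0, against 3.58% lower, 4.35% higher and 7.93% in either direction. At an unadjusted p under 0.05 the edgeR test gave 5 and 3 genes with a higher response in S2 cells, and DESeq2 with adjustment 1 and 0. Of the genes past the threshold, 12 for *jasper* and 14 for *jil-1* RNAi had also been called lower in S2 cells. The interaction uses the same S2 samples as those calls, so the overlap is not independent support.

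The interaction was sharpest for *Marf1* by its p-value. For *Marf1* the response in S2 minus that in Kc cells was -1.06 (SE 0.07, adjusted p = 1.7e-09) for *jasper* and -1.24 (SE 0.07, adjusted p = 2.8e-11) for *jil-1* RNAi by edgeR's quasi-likelihood test. *CG40006* had -1.92 and -2.37, *CG42402* -2.14 and -3.31, *CG43968* -2.27 and -2.09, *Cht10* -2.91 and -3.00, *lovit* -2.93 and -1.74, *CG31601* -2.57 and -2.36, *nAChRalpha4* -1.24 and -2.06, *CG42748* -0.64 and -0.86, and *CG40198* -1.38 and -1.46. These 10 genes passed in both interactions. For *jasper* RNAi the differences of *CG31601* and *Cht10* include the rises in Kc cells given above, whose calls depended on single libraries. For *CG31601* the fall within S2 cells was smaller than the difference, and its Kc control values rest on few reads. Upon *jil-1* RNAi *CG31601* was also above the same-numbered control in all 4 Kc samples. Kc rises that were not called entered other differences too. By batch, *CG40198* had 1.07 and 1.08 and *lncRNA:CR44809* 1.04 and 0.60 upon *jasper* RNAi in Kc cells (log2 over the same-numbered control). *CG12581* had 2.34 and 0.65 upon *jil-1* RNAi, with 0.351 to 1.35 CPM in control Kc cells. Other genes did not rise there, such as *Marf1* upon *jasper* RNAi (-0.08 and -0.02). *CG40198* was past the threshold by little (adjusted p = 0.0466 and 0.0413) and was lost with the replicate number as a block (0.0582 and 0.0602) and without any 1 of 16 and 10 of the 26 libraries (adjusted p of up to 0.122 and 0.0877), and *CG42748* was lost for *jasper* RNAi without Kc *jasper* RNAi replicates 2 and 4 (-0.54, adjusted p = 0.0619). Past the threshold for *jasper* RNAi alone were *CG41284* (-1.34), *CG3635* (-1.19), *lncRNA:CR44809* (-1.91) and *Parp1* (-0.50), and for *jil-1* RNAi alone *AGO3* (-1.27), *CG12581* (-2.02), *CR33294* (-1.61), *Snap25* (-1.12), *CG17493* (-0.69) and *vtd* (-0.41). Without S2 *jasper* RNAi replicates 5 and 9 *Parp1* (-0.53, adjusted p = 0.0511) and *CG40198* (-1.60, adjusted p = 0.0504) fell short and *tio* passed (-1.27, adjusted p = 0.0373). The values for *Snap25* fell short without control 11 or *jil-1* RNAi 11 of S2 cells (-0.93, adjusted p = 0.237 and 0.238), those for *lncRNA:CR44809* without Kc *jasper* RNAi replicates 2 and 4 (-0.90, adjusted p = 0.105), those for *CR33294* without Kc *jil-1* RNAi 3 (-1.42, adjusted p = 0.131), and those for *vtd* without any 1 of 4 libraries (adjusted p = 0.0532 to 0.0723). For *jil-1* RNAi *CG42402* had -2.54 without Kc *jil-1* RNAi 3 and *CG12581* -1.30 without Kc *jil-1* RNAi 1, both still past the threshold. With the replicate number as a block, *CG40298* also passed for *jil-1* RNAi (-1.96, adjusted p = 0.038), and *beta-Man*, the 3R gene nearest to the limit, passed in both interactions as the one gene with a higher response in S2 cells (0.27, adjusted p = 0.0366, and 0.22, adjusted p = 0.0487). For *CG41099* the interaction was 0.09 and -0.05 (adjusted p = 0.72 and 0.81), and for *lt* -0.07 and -0.25 (adjusted p = 0.83 and 0.18), so no difference between lines was shown for these genes.

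The levels of the pericentric genes were also compared between the lines. In control S2 over control Kc cells, 57 of the 67 genes (85.1%) were called, 28 higher and 29 lower, against 32.9% higher, 35.1% lower and 68.0% in either direction among all 8375 genes tested. Line, sex of origin and batch cannot be told apart in this comparison. By arm the directions were unequal. On 2L 20 pericentric genes were higher and 4 lower in S2 than in Kc cells, on 3L 3 were higher and 20 lower, and on 3R 5 were higher and 5 lower. The flanking genes had the same direction on 2L (31 higher, 11 lower) and on 3L (2 higher, 23 lower), and so had all genes of the arms (667 higher and 374 lower on 2L, 351 higher and 703 lower on 3L). On 3R the flanking genes were mostly lower (12 higher, 37 lower), unlike the 5 and 5 pericentric genes and the 660 higher and 687 lower of the whole arm.

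**Figure D4:**
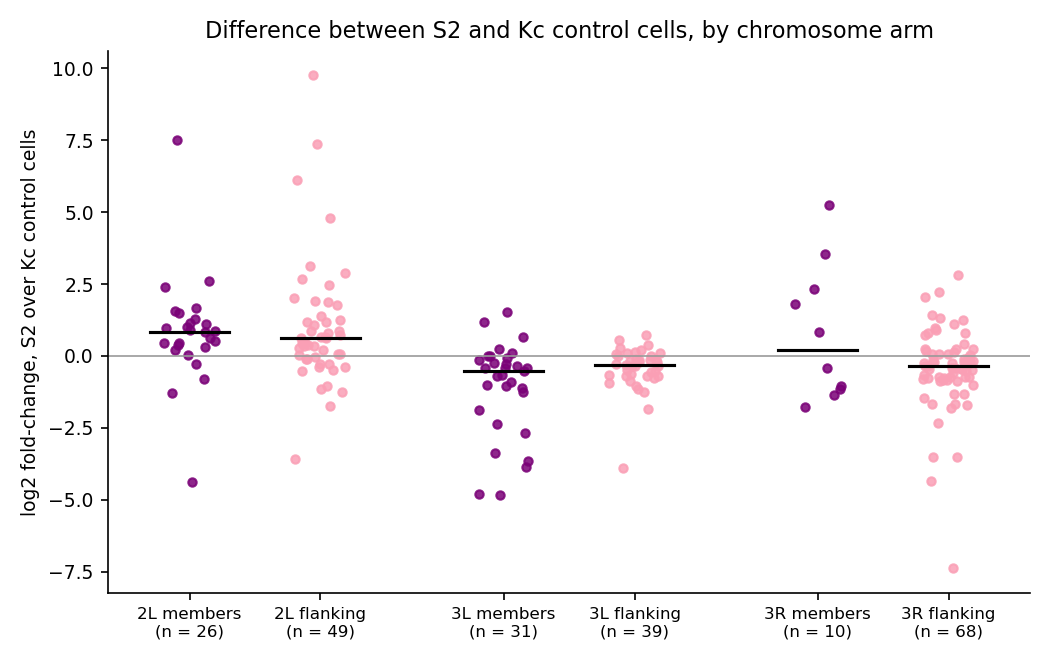
Log2 fold-change of control S2 over control Kc cells (y axis) of each gene, as 1 point, for the pericentric genes (members, dark) and the genes within 1 Mb outside the limits (flanking, light) of each chromosome arm (x axis), with bars at the medians. Most 2L genes lie above 0 and most 3L genes below 0 in both sets, and among the pericentric genes *CG31601* is highest at 7.51 and *Snap25* lowest at -4.83 (-6.22 without S2 control 11).

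The differences between lines were large for single genes. *CG31601* had 93.8, 88.9, 75.6, 76.5 and 115.3 CPM in control S2 cells, against 0.351, 0.390, 0.342 and 0.985 CPM in control Kc cells (log2 fold-change 7.51, standard error 0.24, edgeR adjusted p = 1.6e-10). *CG12581* (5.23), *CG42402* (3.53), *CG40439* (2.59), *CG42748* (2.39), *CG40198* (2.32), *CR33294* (1.81) and *tio* (1.66) followed, and *cta* had 1.57. On the other side, *Snap25* had 0.812, 0.929, 0.509, 0.477 and 6.17 CPM in control S2 cells, against 53.0, 56.5, 41.9 and 48.9 CPM in control Kc cells (-4.83). *Ir40a* had 1.18, 0.697, 1.27, 1.43 and 1.60 CPM in control S2 cells, against 23.4, 26.6, 25.6 and 28.9 CPM in control Kc cells (-4.37). Neither gene had an S2 value within the Kc range. *lncRNA:CR45181* (-4.81), *AGO3* (-3.85), *CG40470* (-3.65), *CG43968* (-3.39), *lncRNA:CR45177* (-2.68) and *eIF4B* (-2.38) were also among the lowest, and *Dbp80* had -1.89 and *Parp1* -1.76. 1 library moved 4 of these values by over 1.5-fold. Without S2 control 11 *Snap25* had -6.22, *CG40470* -4.24, *lncRNA:CR45177* -3.45 and *eIF4B* -3.17, all still called. Counted without regard to strand, *CR33294* had 0.81 and was still called.

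Per kb of exon, the highest pericentric genes in control S2 cells were *snoRNA:Psi28S-2996*, a guide for pseudouridylation of 28S rRNA, with 965.5 ± 144.4 CPM per kb (SD, n = 5), *ND-MLRQ* with 216.3 ± 21.38, *CG40045* with 187.2 ± 18.16, *Slmap* with 147.5 ± 8.708 and *Tim17b*, a subunit of the inner membrane translocase of mitochondria, with 134.7 ± 10.84. The ranges of mean ± SD overlapped for *ND-MLRQ* and *CG40045* and for *Slmap* and *Tim17b*, and not for the other neighbours in this order. In control Kc cells the order was *snoRNA:Psi28S-2996* with 398.5 ± 160.9 CPM per kb (SD, n = 4), *Tim17b* with 341.7 ± 61.89, *ND-MLRQ* with 339.8 ± 17.47, *CG40045* with 219.5 ± 29.44 and *Marf1* with 183.3 ± 29.93, and only *ND-MLRQ* and *CG40045* were neighbours whose ranges did not overlap.

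The genes that fell in S2 cells were mostly of low level, as seen after the values were known. Of the 32 pericentric genes under 50 CPM on average in S2 cells, 15 (46.9%) were called lower upon *jasper* and 17 (53.1%) upon *jil-1* RNAi, where all genes under 50 CPM gave 9.83% and 9.68%. Of the 35 at 50 CPM or more, 7 (20%) and 9 (25.7%) were called lower, against 14.4% and 15.5% of all genes at that level. In the lower range the count stood well above the background, and in the upper range it was nearer to it. Of the genes at 50 CPM or more, *Marf1* alone had a log2 fold-change below -1 in each comparison.

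In structure, the pericentric genes were longer than others. Their median span was 7073 bp, against 3456 bp in the flanks and 2584 bp over the 7736 genes with reads in every sample and a position, and introns made up a median of 62.2% of the span, against 20.2% and 15.03%. An annotated transposon lay within 33 (49.3%) of them, against 29.5% of the flanking genes and 7.81% of all. The 19 genes that fell upon both RNAi treatments in S2 cells had a median span of 18340 bp with 72.0% intron, and 10 of them (52.6%) held a transposon, while the 38 that were not called lower had 6208 bp with 54.1% intron, and 18 of them (47.4%) held one. *AGO3* spans 135048 bp, of which 70.5% is annotated transposon, *Marf1* 60042 bp with 52.9% and *lovit* 434041 bp with 6.39%. A long span rich in annotated transposons was not shared by all that fell: *CG43968* spans 3175 bp and *CG31601* 3151 bp, and neither holds an annotated transposon. These shares count annotated transposons only. On 2L, *CG40439* and every pericentric gene further inside had 0%, among them *lt*, *cta* and *Cht10* with 70.7%, 75.2% and 72.0% intron. Whether the annotation is complete there was not tested.

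Some of the genes that fell were neighbours, as seen after the values were known. Of the 67 pericentric genes 29 were called lower upon at least 1 RNAi in S2 cells, and whether these lie together more than others was not tested. At the 3R limit the 4 successive pericentric genes *CG42402*, *CG40198*, *CG12581* and *CR33294*, between 4077939 and 4196210, had log2 fold-changes of -2.05, -0.44, -0.64 and -1.58 upon *jasper* RNAi and of -2.39, -0.90, -0.58 and -1.39 upon *jil-1* RNAi, all called but that of *CG40198* upon *jasper* RNAi. The next gene, *beta-Man*, a beta-mannosidase gene that starts at 4197206, had 0.04 and 0.02 and was not called. At the other ends, the genes nearest to the centromere, *CG12567* on 2L, *eIF4B* on 3L and *Parp1* on 3R, were called in neither S2 comparison. On 2L the pericentric gene before *Marf1* is *Tif-IA*, a factor of rRNA gene transcription, which had 0.09 and -0.02 and was not called.

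Genes for heterochromatin proteins were examined as a list outside the limits. Of 10 such genes, too few for a share to be read against the 20.3% (S2 *jasper*), 21.4% (S2 *jil-1*), 4.56% (Kc *jasper*) and 3.53% (Kc *jil-1*) called among all genes, among them the gene of HP1a, 0 were called in S2 *jasper*, Kc *jasper* and Kc *jil-1* RNAi cells by edgeR's quasi-likelihood test (5, 1 and 1 at an unadjusted p under 0.05), and 1, *HP1b*, was lower upon *jil-1* RNAi in S2 cells (log2 fold-change -0.20, adjusted p = 0.018), a comparison with 3 of the 10 at an unadjusted p under 0.05. Their log2 fold-changes in S2 cells lay between -0.17 and 0.13 upon *jasper* and between -0.20 and 0.10 upon *jil-1* RNAi.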

How the data were processed

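Strand-specific RNA-seq libraries of 26 S2 and Kc samples were used. The authors aligned reads to the fly genome (BDGP6) with STAR 2.6.0 and deposited, per sample, raw counts of uniquely aligned reads per gene without regard to strand, on the opposite strand and on the strand of the gene, and the last of these were tested here. Reads that fit several places or overlapping exons are not counted, which lowers the counts of genes with repeats or shared exons. The submitters' processing notes also name RSEM 1.3.0, whose values were not used.

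Genes with more than 0 reads in every sample of a fit were tested with edgeR 4.0.16 (TMM factors, quasi-likelihood F-test) in R 4.3.3. Each line was fitted on its own with batch as a block, control samples of both lines were fitted together for the comparison of lines, and all 26 samples with batch within line for the interaction. P-values were adjusted by Benjamini-Hochberg over all genes tested, with a threshold of 0.05, and the standard error of a log2 fold-change is its size divided by the square root of F. The code was tested on simulated data. DESeq2 1.42.0, other scalings, filters, strand settings and blocks, and leaving out each sample were tried as alternatives, and leaving out pairs of *jasper* RNAi samples and, for the line comparison and the interactions, S2 batch 3 were added after seeing the data. Tables and figures were made in Python 3.11.15 with pandas 2.3.3, numpy 2.4.6 and matplotlib 3.10.9.

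The labels give RNAi groups of a line the same replicate numbers. Deviations from the group mean correlated between same-numbered samples in each pair (r between 0.219 and 0.704). Such samples also share a batch, and within batches r was between -0.116 and 0.221, so pairing beyond batch was not shown. The main tests used batch as the block. Comparisons with the control of the same number are descriptive, and the replicate number served as a block only in an alternative. No pair of replicates agreed within sampling noise (chi-square per degree of freedom between 3.652 and 68.222 over 44 pairs).

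Gene names, positions, exon lengths and annotated transposons came from the Ensembl annotation of release 6, in which 274 listed genes had no position. Levels between genes were compared per kb of exon. Genes were named in the text when past the threshold in an RNAi comparison, an interaction or a comparison of both RNAi treatments (for more than 15 in these last, the 8 largest), when among the 8 largest line differences in each direction, when known as heterochromatic, when nearest to a limit or a centromere, or when among the 5 highest per kb. All members past the threshold of an interaction were listed. The genes, lists and tests were chosen with earlier results of these data known, and the split at 50 CPM after seeing the values. Promoter motifs were not searched and no sequences were used here.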

Additional observations from a re-analysis of the deposited data

Results flagged for a closer look

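Of 156 sets of replicates, 26 genes in 6 groups, 18 had a sample far from the others, where about 7.8 are expected by chance at 1 in 20, and 7 of the 18 were replicate 11 of S2 cells, the only number of batch 3. In S2 *jil-1* RNAi replicate 11, *Marf1* had 128.7 CPM and *Snap25* 1.927 CPM. In S2 control replicate 11, *Marf1* had 277.1 CPM, *Snap25* 6.175 CPM, *nAChRalpha4* 24.58 CPM, *tio* 21.04 CPM and *Clamp* 323.6 CPM. Samples of other numbers in S2 cells were *jil-1* RNAi replicate 4 for *CG41099* (106.1 CPM) and *Clamp* (350.1 CPM), *jasper* RNAi replicate 4 for *CG40298* (1.037 CPM) and control replicate 5 for *lt* (263.8 CPM). In Kc cells they were *jasper* RNAi replicate 4 for *lovit* (10.69 CPM) and *CG31601* (3.523 CPM), *jil-1* RNAi replicate 3 for *Ir40a* (34.71 CPM) and *ND-AGGG* (14.55 CPM), control replicate 4 for *CG31601* (0.9852 CPM) and *CG42402* (6.527 CPM), and control replicate 2 for *CG41099* (292.4 CPM).

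The responses of 20 genes differed between S2 and Kc cells by the interaction test of edgeR, each of them lower in S2 than in Kc cells. For *jasper* RNAi the log2 differences were -2.93 for *lovit*, -2.91 for *Cht10*, -2.57 for *CG31601*, -2.27 for *CG43968*, -2.14 for *CG42402*, -1.92 for *CG40006*, -1.91 for *lncRNA:CR44809*, -1.38 for *CG40198*, -1.34 for *CG41284*, -1.24 for *nAChRalpha4*, -1.19 for *CG3635*, -1.06 for *Marf1*, -0.64 for *CG42748* and -0.50 for *Parp1*. For *jil-1* RNAi they were -3.31 for *CG42402*, -3.00 for *Cht10*, -2.37 for *CG40006*, -2.36 for *CG31601*, -2.09 for *CG43968*, -2.06 for *nAChRalpha4*, -2.02 for *CG12581*, -1.74 for *lovit*, -1.61 for *CR33294*, -1.46 for *CG40198*, -1.27 for *AGO3*, -1.24 for *Marf1*, -1.12 for *Snap25*, -0.86 for *CG42748*, -0.69 for *CG17493* and -0.41 for *vtd*. For *Parp1*, *CG17493* and *vtd*, S2 cells alone gave no call, and for *Parp1* and *CG17493* the Kc response was called higher. The Kc response to *jasper* RNAi was also called higher for *CG31601* and *Cht10*, which fell in S2 cells.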

How the results depend on the processing

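Of 136 calls of single genes, 97 held under every alternative, 39 were lost under at least 1 and 0 changed direction. The counts in S2 cells and in the comparison of lines stayed within 1.5 times, except between *jasper* and *jil-1* RNAi, where 8 calls became 13 with no filter on low counts, 2 without the batch block and 5 without S2 *jasper* RNAi replicates 5 and 9. In Kc cells the 4 calls upon *jasper* RNAi became 9 with DESeq2, 1 without the batch block and 1 with the samples of *jil-1* RNAi left out of the fit. The 2 calls upon *jil-1* RNAi became 10 with DESeq2, 8 with no filter, 0 without the batch block and 5 with the samples of *jasper* RNAi left out. The 1 call between both became 7 with DESeq2, 7 with no filter, 0 without the batch block and 2 with the replicate block. Without the batch block the interactions gave 9 calls for *jasper* and 10 for *jil-1* RNAi, in place of 14 and 16. Leaving out single samples gave 21 to 27 calls upon *jasper* and 21 to 30 upon *jil-1* RNAi in S2 cells, 6 to 11 between them, 1 to 5, 1 to 5 and 0 to 4 in Kc cells, 55 to 58 between lines, and 13 to 17 and 14 to 19 in the interactions. The replicate block changed the calls given with the results above and no other call. Over all genes DESeq2 made 709 and 634 calls in Kc cells upon *jasper* and *jil-1* RNAi, against 403 and 312 with edgeR, and without the batch block edgeR made 58 and 57 there, and 645 and 551 in S2 cells against 1719 and 1810. The cause was not tested. Genes under about 1 CPM rest on few reads per library.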

Other observations

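Reads on the strand opposite to 2 pericentric genes differed between the lines. Opposite to *CG40006* they lay between 0.113 and 1.46 CPM in the 14 S2 samples, against 8.25 to 15.5 CPM in the 12 Kc samples, and opposite to *lovit* between 0 and 0.572 CPM in S2 samples, against 3.74 to 7.26 CPM in Kc samples. The ranges did not overlap. No annotated gene on that strand, transposons aside, had exons overlapping those of either gene. The differences were not tested.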
